A study of Homo sapiens with 8 samples.

Results

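The IL6 family cytokines, their receptor chains and the STAT3 feedback loop were read in 9 genes. They are the ligands IL6, LIF, IL11 and CLCF1, the receptor chains IL6ST, OSMR and LIFR, the transcription factor STAT3, and its inhibitor SOCS3. The genes were chosen by name, and their probes were found through the accession that the array design gives to each probe. This gave 16 of the 41000 probes on the array, 15 of which were bright enough to be tested, so that all 9 genes were among the 20317 gene names tested.

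RNA of 3 cell populations was compared on 8 Agilent arrays covering the whole human genome, with 2 dyes on each. H460 is an established human non-small-cell lung cancer (NSCLC) line, grown here in RPMI medium with fetal bovine serum. H460C are cancer stem cells (CSCs) derived from it by nonadherent culture in serum-free DMEM/F12 with BSA, N2 supplement, EGF and basic FGF, and H460R are cisplatin-resistant H460 cells, which received 0.5 μg/mL of the drug for 72 h and were then kept without it in the medium of the parental cells. H460C thus differed from H460 in medium, serum and attachment together, and H460R is the outcome of a single drug treatment of 1 line. Each array held H460 RNA in one dye and RNA of H460C or H460R in the other. Both populations had 2 RNA samples, each measured on 2 arrays of opposite dye assignment, and the labels name 1 H460 RNA sample for all arrays, so that the spread of H460 itself is not in any test. Each population lay on its own slide, and slide and population cannot be told apart.

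Cytokines of the IL6 family act through receptor complexes that share the chain gp130, encoded by IL6ST. IL6 and IL11 bind their own alpha chains, whereas LIF, CLCF1 and oncostatin M recruit gp130 together with LIFR or OSMR. Bound JAK kinases then phosphorylate STAT3, which enters the nucleus and induces, among other genes, SOCS3, a protein that binds gp130 and JAK and shuts the signal off. In lung cancer cells, secretion of IL6 that acts back on the same cells is a known source of STAT3 activity. The arrays measure RNA, not secreted protein or phosphorylated STAT3.

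The promoters of the members whose RNA differed most between H460C and H460R are shown first, as the sequence that RefSeq places upstream of these genes. An entry was found for 7 of the 9 genes (IL6, IL11, IL6ST, OSMR, LIFR, SOCS3 and STAT3), with 10 entries in all, since LIFR and SOCS3 have several starts. The 250 bases before each start were searched on both strands for the STAT motif TTCNNNGAA, the AP-1 motif TGANTCA, the cAMP response element TGACGTCA, and the NF-kB motif. Below are the stretches of IL6 (GRCh38.p14, chr7:22726950-22727199, plus strand), IL11 (chr19:55370464-55370713, minus strand) and LIFR (chr5:38595406-38595655, minus strand, 1 of 3 starts), each written from 5′ to 3′ on the strand of its gene and ending just before the start. Capitals mark the motif matches.
IL6 promoter: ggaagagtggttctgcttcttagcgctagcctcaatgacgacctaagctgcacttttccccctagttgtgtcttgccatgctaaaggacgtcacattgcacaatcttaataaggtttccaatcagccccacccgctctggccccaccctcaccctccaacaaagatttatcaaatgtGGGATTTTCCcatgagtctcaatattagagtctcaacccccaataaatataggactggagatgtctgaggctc
IL11 promoter: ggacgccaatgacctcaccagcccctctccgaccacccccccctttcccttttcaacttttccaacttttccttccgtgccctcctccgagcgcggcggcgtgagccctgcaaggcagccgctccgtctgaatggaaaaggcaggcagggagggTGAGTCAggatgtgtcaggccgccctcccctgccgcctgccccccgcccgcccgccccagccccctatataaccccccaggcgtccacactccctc
LIFR promoter: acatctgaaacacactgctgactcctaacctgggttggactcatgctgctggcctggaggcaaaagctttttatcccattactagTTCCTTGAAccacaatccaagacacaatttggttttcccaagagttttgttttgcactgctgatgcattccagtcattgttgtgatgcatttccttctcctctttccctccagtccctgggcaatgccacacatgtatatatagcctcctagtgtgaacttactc
The match in the IL6 stretch was to NF-kB, from base -73 to -64 before the start. In IL11 it was to AP-1, from -96 to -90, and in LIFR to the STAT motif, from -165 to -157. A second LIFR start also held a STAT match, from -182 to -174, and the third held none of the motifs. IL6ST held an NF-kB match from -53 to -44. No motif was found in the stretches of OSMR, SOCS3 and STAT3. Over all 35116 promoters of the same length, 6.57% held the STAT motif, 6.57% AP-1, 1.65% the cAMP response element and 9.96% NF-kB. These are matches of letters, and no binding was measured.

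Values are given on 2 scales, each named where it is used. Values of single arrays are log2 ratios to H460 from the authors' processed table, already turned so that a positive value is higher in H460C or H460R. Their normalization is not given in the sources used here. Means, tests and differences come from the deposited spot intensities, after background correction and loess normalization within each array, with the arrays of a dye-swap pair averaged to 1 log2 ratio. The H460C replicates differed from each other by less than the noise between hybridizations. Across probes, their difference in one dye orientation correlated with that in the other with r = -0.0116, compared to 0.268 for H460R, as a description across probes that are not independent. The H460C values are for this reason those of 1 sample, with no SD, while those of H460R carry an SD (n = 2). Nothing in the labels says that the RNA samples labeled as replicates came from separate cultures, beyond the design text calling them biological replicates. The limma p-values, SEs and intervals below still take the H460C replicates as 2 samples. For the difference, limma pools the spread of both populations at each probe and adds a prior shared by all probes. The part from H460C is spread of the hybridizations. The part from H460R mixes that with spread between the RNA samples, so no p-value carries the spread of 1 population alone. Rank Products values rest on ranks and measure no spread between samples.

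The channels of the arrays had 22834 to 28499 probes well above background. Of 6 epithelial markers, KRT8, KRT18 and KRT19 were well above background in all 16 channels. CDH1 was so in all 4 H460C channels and in no H460R or H460 channel. KRT7 was so in 5 H460 channels and in no H460C or H460R channel. EPCAM was so in 4 H460C, 3 H460R and 7 H460 channels, with log2 ratios to H460 of 1.36 in H460C and -0.09 in H460R. Of 5 leukocyte markers, PTPRC was above background in no channel and CD14 in all. None of 4 endothelial markers was above background in every channel, and PECAM1 was so in the 4 H460C channels alone. The reverse held for KDR at its probe A_24_P71973, which was above background in all 8 H460 channels, 1 H460R channel and no H460C channel. Of 4 fibroblast markers, PDGFRA was in no channel and LUM in all, with log2 ratios to H460 of -3.23 in H460C and -1.01 in H460R. DCN was above background in 8 H460, 4 H460R and 1 H460C channels, with ratios of -1.37 in H460C and -0.60 in H460R. The part of these markers in the results below was not tested.

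Against H460, none of the 9 members passed the Rank Products test at an FDR of 0.05 in either population. This test, which is the method of the study, ranks all probes within each replicate and takes the product of the ranks. Of all 20317 gene names tested, 1.06% passed it in H460C (0.556% higher and 0.502% lower) and 0.965% in H460R (0.487% higher and 0.477% lower), so that a list of 9 genes without a call is what the background share gives. At an unadjusted p under 0.05, IL11 was the member counted in H460C (1 of 9, compared to 19.2% of all genes), and IL6 and LIFR were counted in H460R (2 of 9, compared to 18.6%). With limma, which tests the ratios against 0 using the spread between replicates, 6 members passed in H460C and 7 in H460R, where 71.7% and 67.7% of all genes did so. The median log2 ratio of the members was 0.15 in H460C and 0.23 in H460R, beside -0.000946 and 0.01 for all genes.

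In RNA of whole cultures, a change in every cell and a change in the share of cells with a gene on cannot be told apart. H460C and H460R were then compared directly, since the H460 RNA drops out of the difference of their ratios. In this limma fit on 4 ratios, 6 of the 9 members passed the adjusted p of 0.05, as did 55.9% of all genes. LIF and IL11 were higher in H460C, a direction called for 28% of all genes, and IL6, OSMR, LIFR and SOCS3 were higher in H460R, a direction called for 27.9%. The remaining members, CLCF1, IL6ST and STAT3, did not pass. IL11 was bright enough to be tested only through its H460C channels, where it was high, which favors its call. When all 16 channels had to be above background, IL11 and IL6ST were not tested. Of the 7 members left, 6 then passed, STAT3 among them, as did 62.9% of all genes. The differences of IL6, IL11 and LIFR were over 1 on the log2 scale, which with the same p was true of 8.04% of all genes. Over the alternative settings they ranged from -1.31 to -0.72 for IL6, from 0.65 to 2.27 for IL11 and from -1.46 to -0.99 for LIFR. Each of the 3 thus also fell short of that size in some setting. The median size of the difference was 0.51 over the members and 0.26 over all genes. Where the arrays of H460C and H460R are said below not to overlap, this describes the gene named. The share of all genes without overlap was not counted. When the H460C replicates were averaged into 1 sample, the same 6 members passed, with adjusted p between 8.91e-05 and 0.0245 by limma, and 46% of all genes did so.

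**Figure D1:**
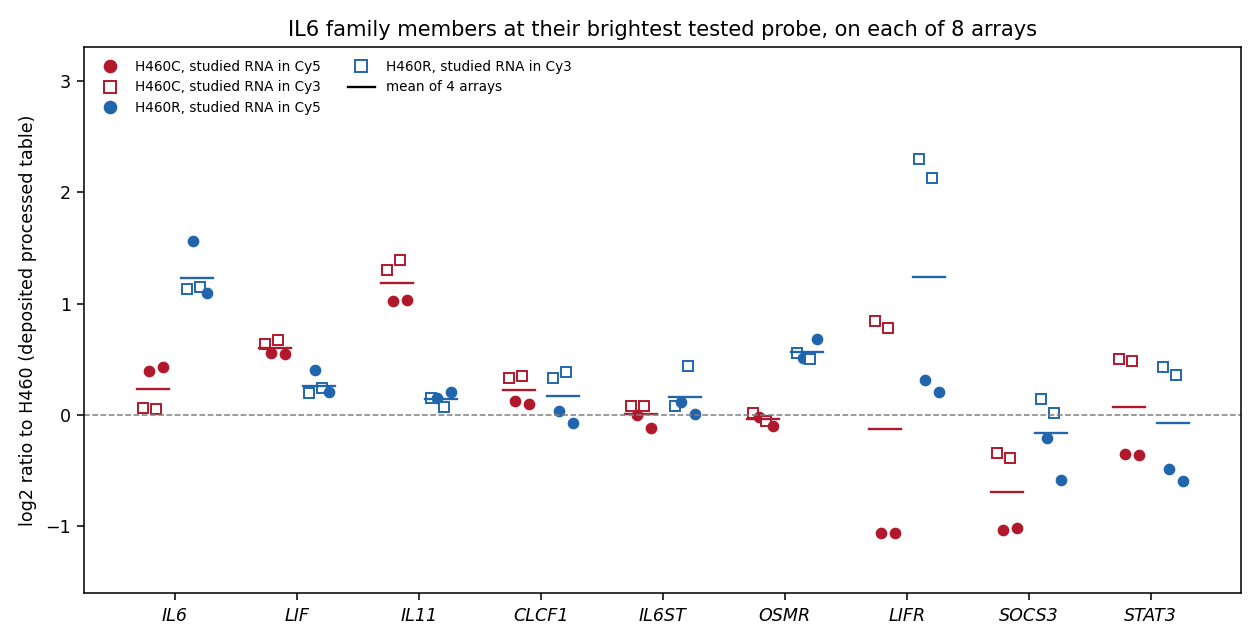
Log2 ratio to H460 of the 9 members on each of the 8 arrays, in the authors' processed table, at the brightest tested probe of each gene. Filled circles have the studied RNA in Cy5, open squares in Cy3, and lines are means of 4 arrays. IL6 and OSMR of H460R lie above all H460C arrays, IL11 and LIF of H460C lie above all H460R arrays, and LIFR and STAT3 separate by dye within each population. The share of all genes whose H460C and H460R arrays do not overlap was not counted.

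IL6, the founding cytokine of the family, was higher in H460R than in H460C. It was read from 1 probe (A_23_P71037, NM_000600) printed in 10 spots. In the authors' table, its log2 ratios in H460R were 1.128 and 1.566 in the Cy3 and Cy5 arrays of replicate 1, and 1.145 and 1.095 in those of replicate 2. In H460C they were 0.06 and 0.395 in replicate 1, and 0.053 and 0.427 in replicate 2. All 4 H460R arrays lay above all 4 H460C arrays, and every array was above 0. From the intensities, the mean was 1.29 ± 0.068 (SD, n = 2) in H460R, with a Rank Products FDR of 0.144, and 0.27 in H460C, with an FDR of 0.966. H460C minus H460R was -1.01 (SE 0.061, 95% interval -1.17 to -0.86, adjusted p = 2.39e-04 by limma). The studied channel of this probe was saturated on the 2 Cy5 arrays of each population, and the H460 channel on none, so that no fold is read from this mean. The Cy3 arrays, where neither channel was saturated, gave a difference of -1.31 (adjusted p = 2.10e-05 by limma). In H460C the intensities gave 0.57 with the studied RNA in Cy5 and -0.03 in Cy3, so that the sign rested on the dye. In H460R the values were 1.29 in Cy5 and 1.28 in Cy3, but the Cy5 value was limited by saturation, so their closeness does not show that the dyes agreed.

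LIF, the cytokine named for inhibiting leukemia cells and used to keep mouse stem cells undifferentiated, was slightly higher in H460C than in H460R at its brighter probe. At this probe (A_24_P122137, NM_002309) the authors' log2 ratios were 0.64, 0.56, 0.67 and 0.55 on the H460C arrays and 0.20, 0.40, 0.24 and 0.21 on the H460R arrays, in the order replicate 1 Cy3, replicate 1 Cy5, replicate 2 Cy3, replicate 2 Cy5. The groups did not overlap. The means from the intensities were 0.65 in H460C (1.56-fold over H460, FDR 0.582) and 0.31 ± 0.051 in H460R (1.24-fold, FDR 0.928). The difference was 0.34 (SE 0.058, 95% interval 0.19 to 0.49, adjusted p = 0.00579 by limma). A second LIF probe (A_24_P233488) was dim, with the H460 channel not above background on 2 of the 8 arrays. It gave -0.04 in H460C and 0.04 ± 0.044 in H460R, and its difference of -0.08 (95% interval -0.23 to 0.07, adjusted p = 0.324) did not pass. With the mean over both probes, the difference was 0.13 and did not pass (adjusted p = 0.0837 by limma).

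IL11, which signals through gp130 as IL6 does, was higher in H460C than in H460R. At its 1 probe (A_23_P67169, NM_000641) the authors' log2 ratios in the order above were 1.30, 1.02, 1.39 and 1.03 in H460C and 0.15, 0.15, 0.07 and 0.21 in H460R. Every H460C array was above every H460R array. H460C was well above background on 4 of its 4 arrays, through which alone the probe was tested, and H460 on 1 of these. On the H460R arrays, H460R was above background on 2 and H460 on 0, and no fold over H460 is given for either population. The mean from the intensities was 1.23 in H460C (FDR 0.247) and 0.17 ± 0.022 in H460R. H460C minus H460R was 1.07 (SE 0.147, 95% interval 0.69 to 1.44, adjusted p = 0.00272 by limma). The value of H460C replicate 1 in Cy5 was 0.46 from the intensities and 1.02 in the authors' table. The arrays with the studied RNA in Cy5 alone gave 0.65 (adjusted p = 0.131), and those in Cy3 alone 1.48 (adjusted p = 1.85e-05). The size also moved with the background correction. The difference was 2.27 with the Feature Extraction log ratio (3.07 in H460C and 0.80 in H460R) and 1.53 with a normexp offset of 0 (1.91 and 0.38).

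CLCF1, a ligand of the ciliary neurotrophic factor receptor, was close in both populations. Its probe (A_23_P138760, NM_013246) had authors' log2 ratios from 0.10 to 0.35 in H460C and from -0.07 to 0.39 in H460R. In both, the Cy3 arrays were the higher ones. The means were 0.29 and 0.23 ± 0.003, and the difference of 0.06 (95% interval -0.08 to 0.20, adjusted p = 0.400 by limma) did not pass.

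Among the receptor chains, IL6ST, the shared signal transducer gp130, gave no call. Its probe (A_23_P502470, NM_002184) had authors' log2 ratios from -0.12 to 0.08 in H460C and from 0.01 to 0.44 in H460R. The value of 0.44 came from replicate 2 in Cy3, and the other H460R arrays were at 0.12 or below. The H460 channel was not above background on 1 of the H460R arrays. The means from the intensities were 0.05 in H460C and 0.19 ± 0.13 in H460R, with a difference of -0.14 (95% interval -0.34 to 0.06, adjusted p = 0.187 by limma). When the scanner software's own log ratio was taken instead, the difference was -0.69 and passed (adjusted p = 0.00271).

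OSMR, the chain that pairs with gp130 to bind oncostatin M, was higher in H460R than in H460C at both of its probes. At the brighter one (A_24_P388860, NM_003999) the authors' log2 ratios were 0.02, -0.02, -0.05 and -0.10 in H460C and 0.56, 0.51, 0.50 and 0.68 in H460R. H460C lay at the level of H460, and all H460R arrays were at least 0.50 above it. The means were 0.01 and 0.61 ± 0.084, or 1.53-fold over H460 in H460R (FDR 0.590), and H460C minus H460R was -0.60 (SE 0.067, 95% interval -0.78 to -0.43, adjusted p = 0.00137 by limma). The second probe (A_23_P156289) gave 0.28 in H460C, where the spot of 1 Cy3 array was marked as an outlier and left out, and 0.66 ± 0.056 in H460R. Its difference was -0.38 (adjusted p = 0.0238). For OSMR the dye orientations of the brighter probe were 0.04 apart in both populations.

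LIFR, the chain through which LIF signals, was higher in H460R than in H460C at both tested probes, but the ratios to H460 disagreed between dyes and between probes. At the brightest probe (A_24_P325992, NM_002310) the authors' log2 ratios in H460C were 0.84 and 0.78 in Cy3, and -1.06 on both Cy5 arrays. In H460R they were 2.30 and 2.13 in Cy3, and 0.31 and 0.21 in Cy5. Within each dye, H460R was above H460C on every array, and across dyes the populations overlapped. The gap between dye orientations was 1.81 in H460C and 1.98 in H460R, in both cases at the 99.8th percentile of all probes, whose median gap was 0.26. The means were -0.04 and 1.33 ± 0.087 (FDR 0.129 in H460R), and the difference was -1.38 (SE 0.067, 95% interval -1.55 to -1.21, adjusted p = 1.42e-04 by limma). The difference was -1.29 in the Cy5 arrays alone and -1.46 in the Cy3 arrays alone.

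At the second LIFR probe (A_24_P397386) all 8 arrays were below 0 in the authors' table, from -1.10 to -0.80 in H460C and from -0.72 to -0.09 in H460R. The means from the intensities were -0.91 and -0.30 ± 0.063, with a difference of -0.61 (adjusted p = 0.00112 by limma). LIFR of H460R was thus 2.52-fold over H460 at one probe and 1.23-fold under H460 at the other. The third probe (A_23_P133517) was not above background in enough channels to be tested, and its means were -0.40 and 0.07 ± 0.040. With the mean over the tested probes, LIFR stood at -0.48 in H460C and 0.52 in H460R, with a difference of -0.99 (adjusted p = 1.82e-04).

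SOCS3, the feedback inhibitor that STAT3 induces, was lower in H460C than in H460R at both probes. At the brighter probe (A_23_P207058, NM_003955) the authors' log2 ratios were -0.34, -1.03, -0.39 and -1.01 in H460C and 0.14, -0.21, 0.02 and -0.58 in H460R. All H460C arrays were below 0, and the populations overlapped across dyes but not within a dye. The means were -0.56 in H460C, or 1.47-fold under H460 (FDR 0.581), and -0.04 ± 0.17 in H460R (FDR 1.00). H460C minus H460R was -0.51 (SE 0.092, 95% interval -0.75 to -0.28, adjusted p = 0.00666 by limma), and it was -0.52 in the Cy5 arrays and -0.51 in the Cy3 arrays. The second probe (A_23_P351069) gave -0.73 and -0.38 ± 0.090, with a difference of -0.35 (adjusted p = 0.0486).

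STAT3 itself did not pass at its brightest probe (A_23_P107206, NM_213662, 10 spots). The authors' log2 ratios were 0.507 and 0.483 in Cy3 and -0.346 and -0.358 in Cy5 in H460C, and 0.428 and 0.359 in Cy3 and -0.486 and -0.594 in Cy5 in H460R. The sign followed the dye on all 8 arrays. The means were 0.15 and -0.02 ± 0.050, and the difference of 0.17 (95% interval 0.02 to 0.33, adjusted p = 0.0621 by limma) did not pass. A second probe (A_24_P116805) behaved in the same way, with means of 0.16 and -0.01 ± 0.13 and a difference of 0.17 (adjusted p = 0.129). At the third probe (A_23_P100795) the dyes gave 1 sign, and all 8 arrays were below 0 in the authors' table, from -0.75 to -0.39 in H460C and from -0.87 to -0.72 in H460R. The means there were -0.52 and -0.78 ± 0.018, neither passed Rank Products (FDR 0.631 and 0.272), and their difference was 0.26 (adjusted p = 0.0256). With the mean over the 3 probes the difference was 0.20 and passed (adjusted p = 0.0441). The probes of STAT3 thus disagreed on its level relative to H460.

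**Figure D2:**
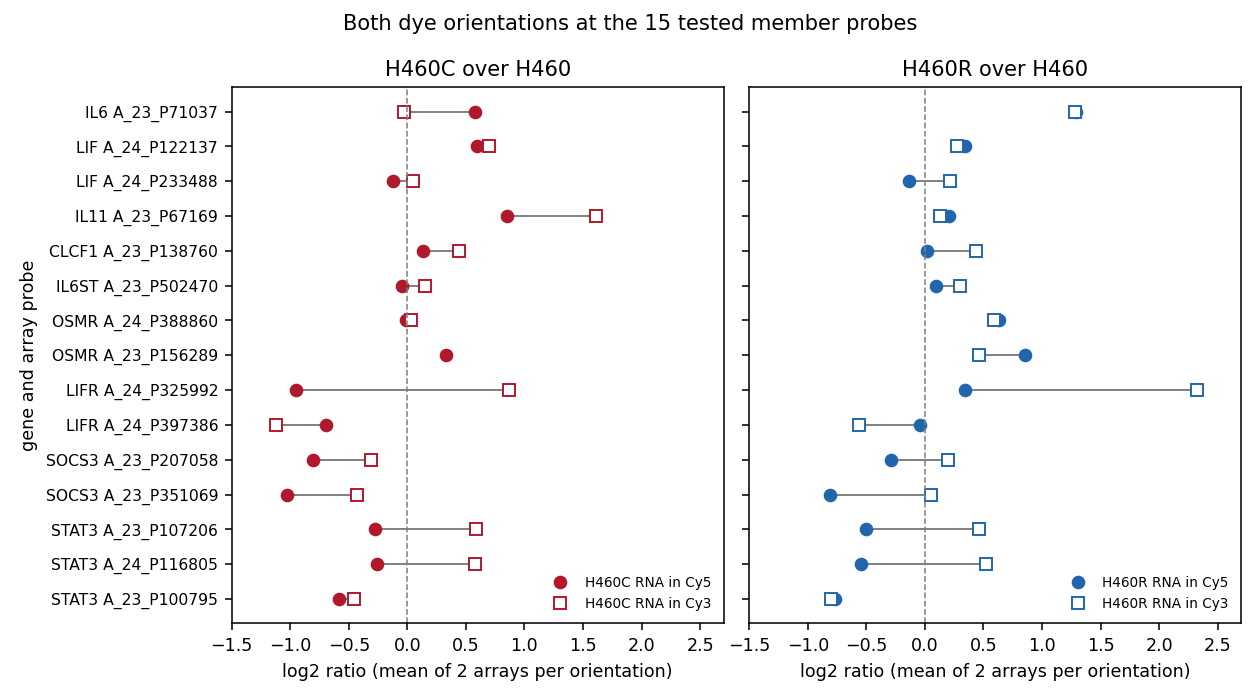
Log2 ratio to H460 from the intensities at the 15 tested member probes, as the mean of the 2 arrays of each dye orientation, for H460C (left) and H460R (right). Filled circles have the studied RNA in Cy5 and open squares in Cy3. The second OSMR probe has no Cy3 point in H460C, where a spot was left out. The brightest LIFR probe has the widest gaps, 1.81 and 1.98, and the first 2 STAT3 probes change sign with the dye.

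Both dye orientations gave the same sign for 71.7% of all tested probes in H460C, and for 69% in H460R, with a median gap of 0.26 in each and a 95th percentile of 0.93 and 0.98. The brightest STAT3 probe had gaps of 0.87 and 0.96, and the SOCS3 probe read had gaps of 0.49 in both populations. Averaging the pair removes a dye effect that is equal on both arrays, and the difference between the populations, which carry the same dyes, is less exposed to it than the ratio to H460.

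Ordered by the mean from the intensities, H460C ran from IL11 (1.23) and LIF (0.65) through CLCF1 (0.29), IL6 (0.27), STAT3 (0.15), IL6ST (0.05), OSMR (0.01) and LIFR (-0.04) to SOCS3 (-0.56). H460R ran from LIFR (1.33) and IL6 (1.29) through OSMR (0.61), LIF (0.31), CLCF1 (0.23), IL6ST (0.19) and IL11 (0.17) to STAT3 (-0.02) and SOCS3 (-0.04). Within H460R, LIFR and IL6 were closer than their SDs of 0.087 and 0.068, as were CLCF1, IL6ST and IL11 given the SD of 0.13 for IL6ST, and STAT3 and SOCS3. For H460C no spread between samples was available. The place of LIFR rests on its brightest probe, since its second probe (-0.30 in H460R) would stand last, and that of IL11 on a ratio to an H460 channel mostly at background. That of LIF in H460C also rests on its brighter probe, as its second gave -0.04. For STAT3, the third probe gave -0.52 in H460C and -0.78 in H460R. The IL6 means include Cy5 arrays with a saturated studied channel.

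The rest of the pathway was read from a list of 49 genes. Of these 47 had a probe and 36 were tested. CNTF and IL11RA had no matched probe, and 11 others, among them IL31, CNTFR and IL31RA, were too dim. By Rank Products 0 of 36 genes passed in H460C and 1 in H460R, compared to 1.06% and 0.965% of all genes. At an unadjusted p under 0.05 there were 8 and 10, compared to 19.2% and 18.6% of all genes, and limma against 0 called 28 and 25, compared to 71.7% and 67.7%. In the difference between the populations 17 genes were higher in H460C, 8 were higher in H460R and 11 did not pass, where 28% of all genes were higher in H460C and 27.9% in H460R. By role, 1 of 4 other ligands was higher in H460C, 1 of 2 other receptor chains was higher in H460C and 1 in H460R, and 1 of 3 kinases passed in each direction. Neither STAT5A nor STAT5B passed. Of 9 other inhibitors 4 were higher in H460C and 3 in H460R, and of 16 STAT3 target genes 10 were higher in H460C and 3 in H460R. The median difference was 0.27 over the 36 genes and 0.01 over all genes.

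The called gene was IL6R, the alpha chain that binds IL6 itself. The authors' log2 ratios were 2.48, 1.34, 2.03 and 1.53 in H460R and 0.68, 0.08, 0.67 and 0.06 in H460C. It rose in H460R by 1.90 ± 0.030 (SD, n = 2), or 3.74-fold (FDR 0.0249), and stood at 0.46 in H460C (FDR 0.768). The difference was -1.45 (SE 0.055, adjusted p = 9.21e-05 by limma). The call in H460R was lost in the Cy5 arrays alone (1.46, FDR 0.0907), with the Feature Extraction log ratio (2.24, FDR 0.0959), and without H460R replicate 1 (1.88, FDR 0.0616).

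OSM, or oncostatin M, which binds gp130 with OSMR or LIFR, had the largest difference toward H460C in the list. Its authors' log2 ratios were 1.76, 1.60, 1.76 and 1.71 in H460C, and -0.55, -0.55, -0.70 and -0.82 in H460R. The groups lay on opposite sides of 0. The means were 1.74 (FDR 0.113) and -0.60 ± 0.15 (FDR 0.441), with a difference of 2.34 (SE 0.095, adjusted p = 1.03e-04 by limma).

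JAK1, a kinase bound to gp130, differed in the other direction, with means of -1.46 in H460C (FDR 0.111) and 0.81 ± 0.28 in H460R (FDR 0.411) and a difference of -2.27 (adjusted p = 2.41e-04 by limma). Its authors' log2 ratios were -1.18, -1.83, -1.24 and -1.81 in H460C and 1.23, 0.69, 1.09 and -0.01 in H460R. A second JAK1 probe gave -1.63 and 0.05 ± 0.030 and a difference of -1.67 (adjusted p = 1.80e-04), so that the lower ratio in H460C was seen at both probes and the higher one in H460R at 1.

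Among the STAT3 target genes, the largest differences toward H460C were those of FGG, a fibrinogen chain of the acute phase (1.12), the transcription factor CEBPD (1.10), the protease inhibitor TIMP1 (1.07), and the survival protein MCL1 (1.04), with adjusted p between 1.87e-04 and 0.00209 by limma. Their means in H460C were 1.40, 0.64, 0.91 and 0.99, and in H460R 0.28, -0.46, -0.15 and -0.05. The MCL1 probe read was saturated in the studied channel on the 2 Cy5 arrays of H460C. Its spots on these arrays were left out because they were marked as outliers, not for saturation, so that its mean in H460C is from Cy3 alone. In the Cy3 arrays of both populations the difference was 0.96 (adjusted p = 1.46e-04), and with median centring it was 0.48 (adjusted p = 0.0410). The 2 other MCL1 probes gave 0.74 and 0.22 in H460C, with differences of 0.95 and 0.88. For CEBPD, 1 Cy3 spot of H460C was left out, and its mean in H460C was 0.37 in the authors' table and 1.11 with median centring. FGG had the H460 channel above background on 2 of the 4 H460R arrays, and stood at 2.36 in H460C and 0.97 in H460R with the Feature Extraction log ratio. Toward H460R the largest were OSGIN2 (-0.50, adjusted p = 0.00545) and the tumor necrosis factor receptor TNFRSF1A (-0.48, adjusted p = 0.00513). OSGIN2 had means of 0.59 and 1.09 ± 0.15 and TNFRSF1A of -0.96, with 1 Cy3 spot of H460C left out, and -0.48 ± 0.017. A second OSGIN2 probe gave 0.20 and 0.71 ± 0.13, with a difference of -0.51 (adjusted p = 0.00464 by limma). A second TNFRSF1A probe gave -0.41 and -0.03 ± 0.029, with a difference of -0.37 (adjusted p = 0.00367 by limma). At that probe H460R thus lay near H460. PIAS3, a protein inhibitor of STAT3, followed with a difference of -0.48 (adjusted p = 0.00200) and means of -0.39 and 0.09 ± 0.062. Its authors' log2 ratios were from -0.58 to -0.28 in H460C and from -0.22 to 0.29 in H460R, without overlap. None of these genes passed Rank Products against H460 in either population. The direction of SOCS3 was the opposite of most of the target genes, and this contrast between them was not tested.

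**Figure D3:**
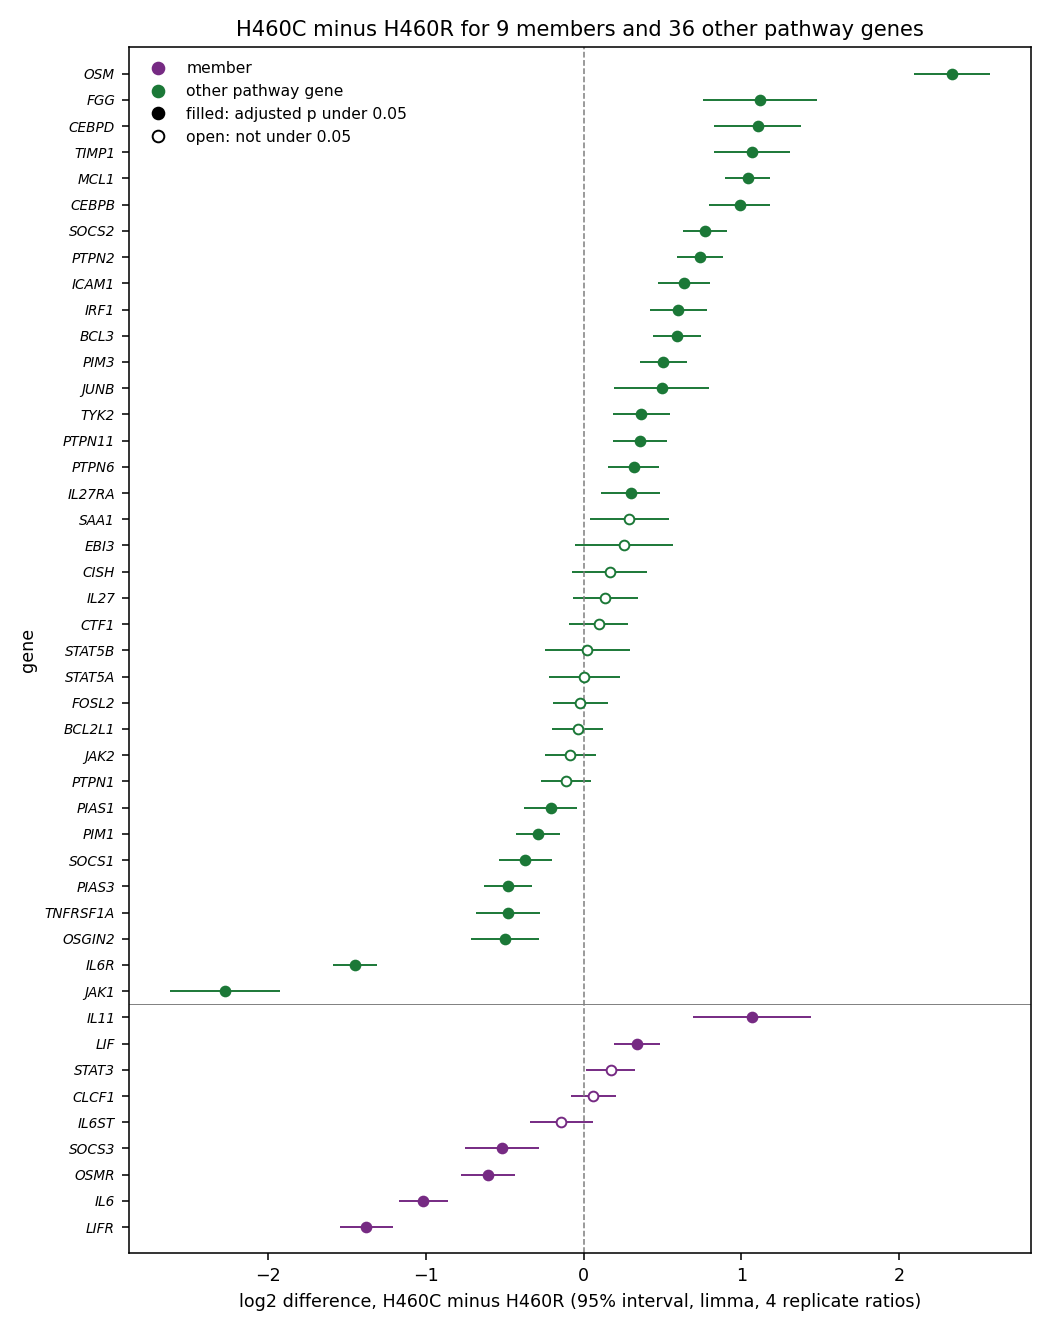
Log2 difference between the ratios of H460C and H460R for the 9 members (lower block) and the 36 tested genes of the pathway list (upper block), with 95% intervals from limma on 4 replicate ratios. Filled points have an adjusted p under 0.05. JAK1 at -2.27 and OSM at 2.34 are the ends of the range, and 6 members and 25 other genes are filled.

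**Figure D4:**
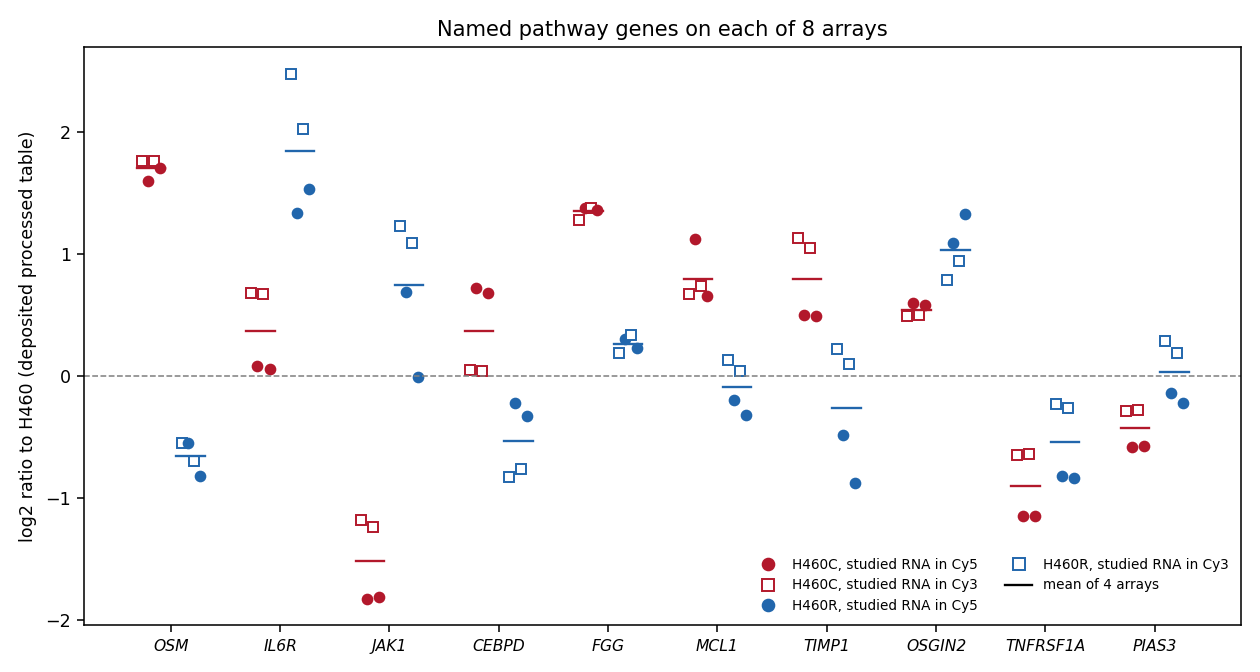
Log2 ratio to H460 of the 10 pathway genes described above on each of the 8 arrays, in the authors' processed table. Filled circles have the studied RNA in Cy5, open squares in Cy3, and lines are means of 4 arrays. JAK1 lies between -1.83 and -1.18 on the H460C arrays, and OSM lies between 1.60 and 1.76 on the H460C arrays and below 0 on all H460R arrays.

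The genes with the pattern most like that of IL6, LIF and SOCS3 were found by the Euclidean distance of their brightest probes over the 4 replicate log2 ratios. For IL6 they included CTBS (distance 0.12) and ASPH (0.13). For LIF they were RPS6KB1 (0.06), POGZ (0.06) and MAP4K4 (0.08), and for SOCS3 PLOD1 (0.06), NAT14 (0.08) and DSG2 (0.09). With 4 ratios from 2 populations, such a distance describes 2 levels per gene and little else.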

How the data were processed

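RNA of H460C and H460R was measured against H460 RNA on 8 dual-color arrays. Spots had been quantified by the authors in Agilent's Feature Extraction software. The median intensities of spot and local background were deposited without normalization. A log10 ratio, red over green, was deposited from the same software and was used in an alternative. In 1 array its decimal points were missing, and the values were divided by 10 to the power of 9. The authors' processed table holds log2 ratios, with H460C or H460R over H460. The labels name limma among the processing tools, without its role. The marks for saturation, outliers and signal well above background, a score of 0 or 1, were used as deposited. Columns without a sample numbered 0. The plan named mean intensities. The files hold medians, which were used.

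Background was corrected by normexp (offset 50) and log2 ratios by loess within arrays, without control spots and outliers. Saturated spots that were not marked as outliers were kept. Averaging the 43376 spots gave 41000 probes. The filter asked, in every channel of H460C, of H460R or of H460, for signal well above background in at least 0.5 of a probe's spots (26046 probes, 26014 with all ratios). Dye-swap arrays were averaged to 1 ratio per replicate, and where 1 spot was marked the other array was used alone. A gene was read at its brightest tested probe. Of 25868 probes with a RefSeq accession, 23958 matched a symbol in the RefSeq table of GRCh38.p14. The array design names an older build, so promoter coordinates are those of RefSeq and no probe coordinates are given. The number of arrays limits the precision.

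Each population was tested against H460 by Rank Products (exact distribution of the product of 2 ranks, FDR 0.05 by Benjamini-Hochberg over all probes, each direction), which leaves out the spread of H460. H460C minus H460R was tested two-sided with limma (2 residual and 3.24 prior degrees of freedom), taking the H460C replicates as 2 samples. On simulated data with 200 of 26014 probes changed, Rank Products recovered 100% with 0 false calls, and limma 99% to 100% with 1. The size and noise set for those 200 probes are not stated here. The recovered shares therefore do not give the power of either test for the members. The versions were 4.3.3 for R, 3.58.1 for limma and 1.17.8 for the package data.table. The members and lists were chosen with earlier results of these data known. The genes named are all members with each probe, the pathway genes called by Rank Products, 5 for each direction of the difference between populations, by size, and the 3 nearest to IL6, LIF and SOCS3, except that a few genes that the lists or this rule hold are not reported here. The alternatives were other background corrections and normalizations, the authors' table, other filters, 1 dye orientation, the mean over probes, limma against 0 and with a minimum difference of 1, a replicate block, each replicate left out and the H460C replicates averaged. The last 3 and the mean over probes for the values of single members, and all alternatives for single pathway genes, were chosen after seeing the data.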

Additional observations from a re-analysis of the deposited data

Results flagged for a closer look

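The log2 ratio of IL6ST in H460R was 0.50 on the array of replicate 2 in Cy3, compared to 0.075 to 0.11 on the other 3 arrays, a gap that is 0.915 of the whole range. FGG in H460C was 0.88 on the array of replicate 1 in Cy5, compared to 1.51 to 1.63 on the others. In the authors' processed table the FGG value of that array was 1.38, and those of the other arrays were 1.28, 1.38 and 1.36. These were the groups of 4 arrays with 1 array far from the rest among 48 groups examined, and chance alone marks a share of about 0.05 of such groups.

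The effect in H460C differed from that in H460R, by the limma test of the difference with Benjamini-Hochberg adjustment, for 6 members and 25 of the 36 pathway genes tested, as it did for 55.9% of all genes. Of the pathway genes, the 10 named had mostly been selected by the size of this difference, so that their passing is no separate result. For the members, H460C minus H460R was -1.01 for IL6, 0.34 for LIF, 1.07 for IL11, -0.60 for OSMR, -1.38 for LIFR and -0.51 for SOCS3. For the named pathway genes it was -1.45 for IL6R, -2.27 for JAK1, -0.50 for OSGIN2, -0.48 for TNFRSF1A, -0.48 for PIAS3, 1.04 for MCL1, 1.07 for TIMP1, 1.10 for CEBPD, 1.12 for FGG and 2.34 for OSM.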

How the results depend on the processing

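No member was called against H460 by Rank Products under any alternative but the Cy3 arrays alone, where LIFR was called in H460R (1 gene, log2 ratio 2.33, FDR 0.0136). Limma against 0 called 6 members in H460C and 7 in H460R, and 28 and 25 pathway genes, compared to 71.7% and 67.7% of all genes. The pathway count in H460R was 0 with the Feature Extraction log ratio and in the Cy5 arrays alone, and 2 in the Cy3 arrays alone. Without a replicate, the counts ranged from 0 to 0 for members in both populations and for pathway genes in H460C, and from 0 to 1 for pathway genes in H460R, with 0 without H460R replicate 1. In the difference, a fit without a replicate leaves 1 sample in a population, and its counts are not given here. With a minimum difference of 1, limma called 1 member and 3 pathway genes, compared to 3.39% of all genes, and with median centring 4 members and 15 pathway genes, compared to 30.8%.

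Same-numbered replicates of the populations deviated with r = 0.207 over 2 pairs, which does not establish a pairing. With the replicate number as a block, 6 members and 26 pathway genes passed, as did 60.4% of all genes, and no call of a member changed. LIF lost its difference with median centring (adjusted p = 0.134), with the mean over probes (0.0837) and in the Cy5 arrays (0.0897), SOCS3 with median centring (0.0522), IL11 in the Cy5 arrays (0.131), and OSGIN2 (0.0562), PIAS3 (0.0563) and TNFRSF1A (0.369) with median centring. STAT3 passed without background subtraction (adjusted p = 0.0411), in the authors' table (0.0466), with the stricter filter (0.0489) and with the mean over probes (0.0441). The cause was not tested.

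Ratios near 0 changed sign without a call. With the Feature Extraction log ratio, H460C was -0.0386 for IL6ST and -0.0581 for OSMR. OSMR in H460C was -0.00386 with a normexp offset of 0 and -0.0375 in the authors' table, and -0.0219 to 0.0395 when a replicate was left out. The mean over probes gave -0.0688 for STAT3 in H460C. Median centring gave 0.13 for LIFR in H460C, and 0.0177 for SOCS3 and 0.12 for STAT3 in H460R. The Cy5 arrays gave -0.0422 for IL6ST, -0.0113 for OSMR and -0.28 for STAT3 in H460C, and -0.14 for PIAS3 in H460R. The Cy3 arrays gave -0.0264 for IL6 and 0.86 for LIFR in H460C, and 0.20 for SOCS3, 0.46 for STAT3, 0.16 for TNFRSF1A, 0.025 for MCL1 and 0.30 for TIMP1 in H460R. With a replicate left out, H460R ranged from -0.17 to 0.0768 for SOCS3 and from -0.0537 to 0.0175 for STAT3. Direction and call were kept by 334 of 363 values of members and 387 of 397 values of named pathway genes. For LIF and IL11, probes close to background limit what the ratio can show.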
